A study of Mus musculus with 9 samples.

Results

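The atrial myocyte markers are 5 genes, Myl7, Myl4, Sln, Bmp10 and Mybphl, taken by symbol from a table of 29237 mouse genes, and all 5 were found. They were chosen by their measured FPKM in the 9 libraries, since 1 DOX library carried nearly all of their signal, so their levels in every comparison are given as a description with no test. RNA was sequenced from hearts of wild-type C57BL/6 mice of 8 to 12 weeks in 3 groups of 3 libraries, which the labels call TPTN, DOX and control. The series title names cardiomyopathy induced by doxorubicin, an anthracycline cancer drug that can injure heart muscle, and the design text calls DOX the model group and TPTN a treated group. The labels give no dose, route or day, do not say whether TPTN mice received doxorubicin, do not say which chambers of the heart were taken, and name no batch. Apart from replicate numbers, nothing says that each library is another mouse, and the p-values below cover only the spread among libraries, which may be technical.

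The adult mouse heart has atria and ventricles whose muscle cells share most contractile genes but use different light chains, secreted factors and calcium pump regulators. Myl7 encodes the atrial regulatory light chain of myosin and Myl4 the atrial essential light chain. Sln encodes sarcolipin, a small membrane protein that inhibits the calcium pump of the sarcoplasmic reticulum. Bmp10 encodes a secreted ligand of the BMP family that is made in the adult atria and signals to endothelial cells, and Mybphl encodes a relative of myosin binding protein C found in atrial and conduction system myocytes.

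Values are FPKM, sequenced fragments divided by transcript length and by the mapped total of the library. Levels are thus shares of a library, and between libraries a shift in abundant genes moves all others. The FPKM of each library summed to between 495458 and 542684. The low values gave a rough depth of 20.2 to 26.6 M read pairs per library. Only 14 to 15.3% of low values fell within 0.05 of a whole number of read pairs on that estimate. Evenly spread values would give a share not far below this, so the estimate has little support, and counts were not recovered. Mitochondrially encoded genes made up 48.1 to 48.7% of the FPKM sum in TPTN, 44.7 to 46.2% in DOX and 49.8 to 50.9% in control. Of 12500 genes with a mean of at least 0.5 FPKM over the 9 libraries, DOX replicate 1 stood at least 1 log2 unit above every other library in 28 genes. The number was 0 to 3 for each of the other 8 libraries. DOX replicate 1 was the lowest library by the same margin in 1 gene.

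**Figure D1:**
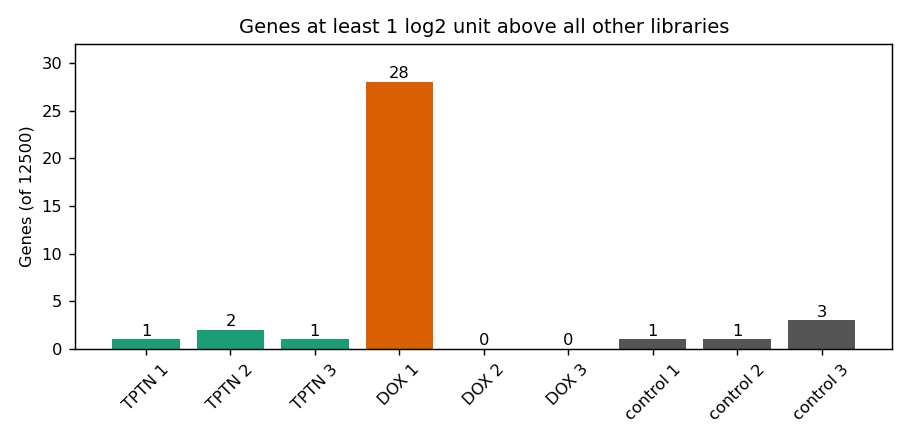
Bars count, for each library, the genes whose log2(FPKM + 1) was at least 1 above the highest of the other 8 libraries, among 12500 genes tested, with TPTN in green, DOX in orange and control in grey. DOX replicate 1 has 28 such genes and each other library 0 to 3.

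The sequence before the start site is shown for the 3 members in which a searched motif was found, since the 5 genes were high in the same library. RefSeq entries of GRCm38.p6 matched 4 of the 5 genes, and each window holds the 250 bases before the start site, read 5′ to 3′ on the gene's strand. Capitals mark a CArG box, the site bound by serum response factor, in Myl7 (chr11:5898783-5899032, minus strand), and the letters AGATAA, a form of the site read by GATA factors, in Bmp10 (chr6:87428744-87428993, plus strand) and Mybphl (chr3:108364661-108364910, plus strand).
Myl7: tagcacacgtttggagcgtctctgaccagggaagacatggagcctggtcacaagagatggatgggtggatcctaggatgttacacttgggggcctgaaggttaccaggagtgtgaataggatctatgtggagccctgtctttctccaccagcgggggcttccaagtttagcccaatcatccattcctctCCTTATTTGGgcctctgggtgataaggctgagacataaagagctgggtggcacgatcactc
Bmp10: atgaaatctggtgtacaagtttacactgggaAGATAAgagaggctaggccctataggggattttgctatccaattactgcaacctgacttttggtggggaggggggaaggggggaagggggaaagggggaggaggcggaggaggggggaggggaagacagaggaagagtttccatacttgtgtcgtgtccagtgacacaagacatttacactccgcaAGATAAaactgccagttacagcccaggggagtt
Mybphl: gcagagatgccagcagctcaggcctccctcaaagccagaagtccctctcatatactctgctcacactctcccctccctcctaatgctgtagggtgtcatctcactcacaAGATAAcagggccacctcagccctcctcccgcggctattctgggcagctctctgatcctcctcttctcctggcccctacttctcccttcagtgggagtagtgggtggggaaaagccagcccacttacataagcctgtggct

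Both strands were searched and the marked matches do not overlap. The CArG box of Myl7 began 61 bases before the start site. The letters AGATAA began 219 and 33 bases before the start site of Bmp10 and 141 bases before that of Mybphl. Of 32851 promoter windows of the same length, 1.47% held a CArG box and 9.99% held AGATAA. The letters AGGTGT, a T-box core, and a MEF2 site were in none of the 4 matched windows, against 11.8 and 2.92% of all windows. An E-box, the letters CANNTG, was also searched and is not marked: 1 began 168 bases before the start site of Myl7, and 66.2% of all windows held one. Other forms of the GATA site, such as the letters TGATAA present in the Myl7 window, were not searched and are not marked. These matches describe letters only.

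The members are given by role, with those of the contractile apparatus first. Myl7 (ENSMUSG00000020469, chromosome 11 from 5896637 to 5898782 in GRCm38, GENCODE M21) had 0.889, 0.111 and 0 FPKM in TPTN replicates 1, 2 and 3. It had 539, 0.764 and 0.737 FPKM in DOX replicates 1, 2 and 3, and 0.116, 0 and 0.151 FPKM in control replicates 1, 2 and 3. In DOX replicate 1 it was the 60th most abundant gene of the table, while in every other library it stayed under 1 FPKM. The other 2 DOX libraries lay above the 3 control libraries but below TPTN replicate 1, so DOX and TPTN overlapped.

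Myl4 (ENSMUSG00000061086, chromosome 11 from 104550663 to 104595753) pairs with Myl7 on atrial myosin. Its values were 0.229, 0.173 and 0.142 FPKM in TPTN, 84.3, 0.278 and 0.322 FPKM in DOX, and 0.118, 0.19 and 0.237 FPKM in control. It was the member with no library at 0, and outside DOX replicate 1 it stayed between 0.118 and 0.322 FPKM. Its DOX values did not overlap with either other group, and the nearest libraries were 0.278 FPKM in DOX replicate 2, 0.229 in TPTN replicate 1 and 0.237 in control replicate 3.

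Mybphl (ENSMUSG00000068745, chromosome 3 from 108364911 to 108380057) stood at 0.0896, 0.0271 and 0.151 FPKM in TPTN, 45.6, 0.176 and 0.104 FPKM in DOX, and 0, 0.0273 and 0.123 FPKM in control. Apart from DOX replicate 1, its groups overlapped.

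Sln (ENSMUSG00000042045, chromosome 9 from 53850164 to 53854560), the pump regulator, had 0.0373, 0.0458 and 0 FPKM in TPTN, 85.3, 0 and 0.0581 FPKM in DOX, and 0, 0.0693 and 0 FPKM in control. It was listed at 0 in 4 of the 8 libraries other than DOX replicate 1, the most of any member. Bmp10 (ENSMUSG00000030046, chromosome 6 from 87428994 to 87437677), the secreted ligand, had 0.00867, 0 and 0 FPKM in TPTN, 66.3, 0.024 and 0.00921 FPKM in DOX, and 0, 0.0635 and 0.0511 FPKM in control. For both genes the DOX group overlapped with the others once its first replicate is set aside.

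**Figure D2:**
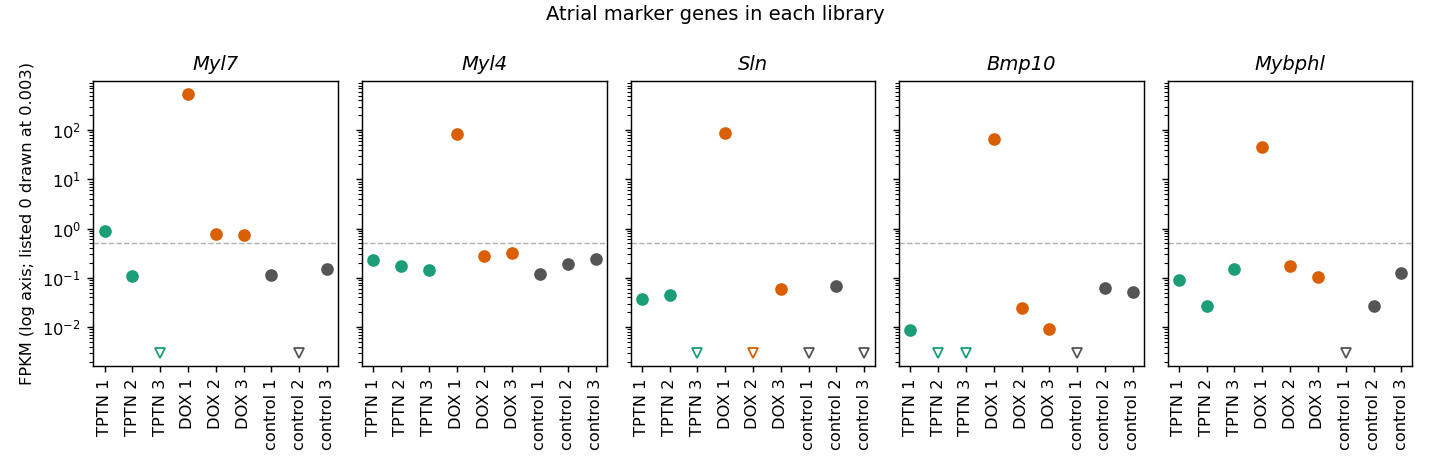
Points give FPKM on a log axis for each member in each of the 9 libraries, with TPTN in green, DOX in orange and control in grey; open triangles are values listed at 0, and the dashed line is 0.5 FPKM. DOX replicate 1 lies between 45.6 and 539 FPKM, and every other value is at or below 0.889 FPKM.

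The 5 genes together summed to 1.25, 0.357 and 0.292 FPKM in TPTN, 820, 1.24 and 1.23 FPKM in DOX, and 0.234, 0.35 and 0.562 FPKM in control. DOX replicate 1 thus held 98 to 99.8% of each gene's sum over the 9 libraries. Its distance above the highest other library, on the log2(FPKM + 1) scale, was 8.16 for Myl7, 6.33 for Sln, 6.01 for Myl4, 5.98 for Bmp10 and 5.31 for Mybphl. These were the 5 largest such distances of the 12500 genes. In tissue RNA, fewer cells of a type and less RNA per cell cannot be told apart.

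All 5 members passed the minimum of 0.5 FPKM over the 9 libraries, and 0 of the 5 would pass on the mean of the other 8, so DOX replicate 1 alone brought them among the genes tested. Group means therefore describe 1 library: Myl7 averaged 0.333 ± 0.484 FPKM in TPTN, 180 ± 311 in DOX and 0.089 ± 0.079 in control, and Myl4 averaged 0.181 ± 0.0441, 28.3 ± 48.5 and 0.182 ± 0.0599 (SD, n = 3 each). The DOX minus control differences in mean log2(FPKM + 1) were 3.44 for Myl7, 2.15 for Myl4, 2.14 for Sln, 1.99 for Bmp10 and 1.9 for Mybphl. Without DOX replicate 1 the same differences were 0.69, 0.14, 0.01, -0.03 and 0.12. The TPTN minus DOX differences were -3.21, -2.15, -2.13, -2.04 and -1.85 in the same order of genes, and without DOX replicate 1 they were -0.45, -0.14, 0.00, -0.02 and -0.07. These comparisons share the DOX libraries. Myl7 and Myl4, 2 of the 5, did not overlap between DOX and control, which 17.7% of all tested genes did in that direction, and Myl4 alone did not overlap between TPTN and DOX, as for 14.1% of tested genes.

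**Figure D3:**
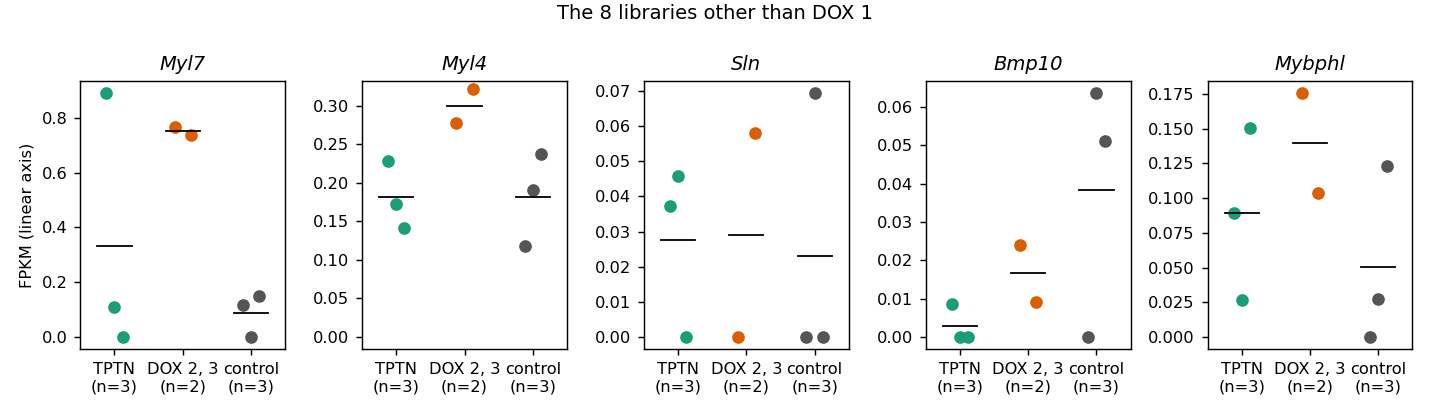
Points give FPKM on a linear axis for the 8 libraries other than DOX replicate 1, and bars mark the mean of the 3 TPTN, 2 DOX and 3 control libraries. Each panel has its own scale, and the highest value is 0.889 FPKM, for Myl7 in TPTN replicate 1.

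TPTN against control is also given as a description with no test. The members were chosen by their values in all 9 libraries, and they entered the tested genes only through DOX replicate 1. The TPTN minus control differences in mean log2(FPKM + 1) were 0.24 for Myl7, 0.00 for Myl4, 0.01 for Sln, -0.05 for Bmp10 and 0.05 for Mybphl. For Myl7 1 TPTN library was above and the other 2 below the highest control library, and for the other 4 genes the groups overlapped. All of these values are under 1 FPKM, where adding 1 FPKM compresses a difference. With 0.1 FPKM added in its place, the differences were 0.65 for Myl7, 0.01 for Myl4, 0.08 for Sln, -0.40 for Bmp10 and 0.36 for Mybphl.

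Other genes known from atrial myocytes were also high in DOX replicate 1. Of 12 tested genes of a list of 15, 10 were at their highest there, against 22.8% of all tested genes, and 5 stood at least 1 log2 unit above every other library, against 0.224%. Their median distance from the median of the other 8 libraries was 1.08 on the log2(FPKM + 1) scale, beside 0.06 over all tested genes.

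Nppa, the atrial natriuretic peptide gene, had 118, 120 and 52.6 FPKM in TPTN, 1736, 288 and 195 FPKM in DOX, and 94, 51.2 and 147 FPKM in control. All 3 DOX libraries were above the other 6, the first by the most. Dkk3, which encodes a secreted dickkopf family protein, had 43.5 FPKM in DOX replicate 1 and 0.442 to 0.886 FPKM elsewhere. Stard10, a lipid transfer protein gene, had 33.9 against 4.79 to 7 FPKM, and the kinase gene Sbk2 had 8.89 against 1.18 to 1.86 FPKM. Pam, whose enzyme amidates peptides and is abundant in atrial granules, had 88 against 36.1 to 48.5 FPKM.

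Kcnj3 and Kcnj5 encode the subunits of the potassium channel opened by acetylcholine in atrial cells. Kcnj3 had 17.9 FPKM in DOX replicate 1 and 7.32 to 9.32 elsewhere, and Kcnj5 had 21.5 and 11.1 to 13.3. Tbx5, a transcription factor gene of heart development, had 7.89 and 2.33 to 3.38 FPKM, and Gja5, the gene of connexin 40, had 3.01 and 0.865 to 1.33 FPKM. The exceptions among the 12 were Kcnk3 and Kcna5, both potassium channel genes. Kcnk3 had 42.3 FPKM in DOX replicate 1, within the 33.1 to 46.2 FPKM of the other libraries, and Kcna5 had 8.54, within 4.4 to 9.52. Nr2f2, a nuclear receptor gene of atrial identity, was at 0.953 FPKM in DOX replicate 1 and 0.692 to 0.88 elsewhere.

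These 12 genes were tested with limma, a linear model fitted over all 12500 genes, and called at an adjusted p of 0.05. They gave 0 calls in limma for DOX against control, where 2.63% of all genes were called. In that comparison 4 of the 12 had an unadjusted limma p under 0.05, beside 2256 of all 12500 genes. There were 0 calls for TPTN against DOX, where 3.26% were called, and 0 for TPTN against control, where 0.552% were called. In TPTN against DOX 4 of the 12 had an unadjusted limma p under 0.05, beside 2581 of all 12500 genes. In TPTN against control 1 of the 12 did, beside 1853 of all 12500 genes. The median log2 differences were 0.47, -0.56 and -0.02, beside 0.04, -0.01 and 0.04 over all tested genes. Without DOX replicate 1 the median was 0.09 for DOX against control and -0.18 for TPTN against DOX, with 0 calls in limma in each. In that fit 4 and 5 of the 12 had an unadjusted limma p under 0.05, beside 2423 and 3072 of all 12500 genes. Pam came nearest in that fit, with a log2 difference of 0.29 for DOX against control (SE 0.07, limma adjusted p = 0.0558) and -0.28 for TPTN against DOX (SE 0.07, limma adjusted p = 0.0518).

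**Figure D4:**
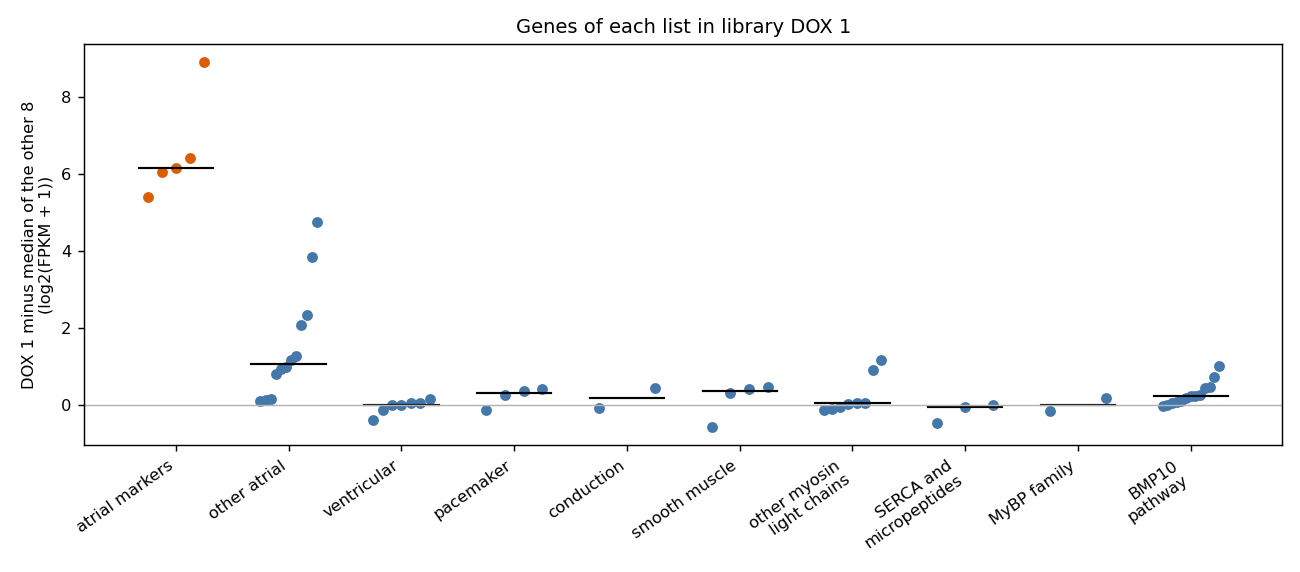
Each point is a tested gene, placed by its log2(FPKM + 1) in DOX replicate 1 minus the median of the other 8 libraries, and bars are list medians; the members are orange. The members lie between 5.41 and 8.90 and other atrial genes reach 4.76, while the ventricular genes lie between -0.37 and 0.17.

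The ventricular light chain genes were abundant in all 9 libraries. Myl2, the ventricular regulatory light chain gene and the counterpart of Myl7, had 2308, 2322 and 2413 FPKM in TPTN, 2426, 2792 and 2887 FPKM in DOX, and 2240, 1908 and 2071 FPKM in control. The first DOX replicate was the lowest of its group, but above all TPTN and control libraries. Myl3, the counterpart of Myl4, followed at 1519, 1697 and 1780 FPKM in TPTN, 1771, 2094 and 2118 FPKM in DOX, and 1718, 1502 and 1643 FPKM in control. Of the 7 ventricular genes, only Hey2 was highest in DOX replicate 1, at a low 0.851 FPKM against 0.521 to 0.826 FPKM elsewhere. Fhl2, a LIM domain protein gene, was lowest there at 422 FPKM against 476 to 600 FPKM elsewhere. In DOX against control 1 of the 7 was called: Myl2 rose (log2 difference 0.38, SE 0.08, limma adjusted p = 0.0339), a call absent after median-ratio scaling, after quantile normalization, with the replicate block, with no filter on low values and in a fit of those 2 groups. It was also lost without TPTN replicate 2 or 3, DOX replicate 2 or 3, or control replicate 2 or 3, and without DOX replicate 1 both Myl2 (0.46, limma adjusted p = 0.0308) and Myl3 (0.38, limma adjusted p = 0.049) passed.

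Within the families of the members, the relatives did not share the pattern to the same size. Of 9 other myosin light chain genes in the table, 3 were highest in DOX replicate 1. Myl1, an essential light chain gene of fast muscle, had 15 FPKM there and 4.14 to 10.2 elsewhere, and Myl9, the smooth muscle regulatory light chain gene, had 29.2 and 8.3 to 18.5. Pln, the phospholamban gene and the main pump regulator of ventricular muscle, had 1205 FPKM in DOX replicate 1 and 1128 to 1283 elsewhere. Atp2a2, the pump gene itself, had 1401 and 1211 to 1560 FPKM. It was higher in TPTN than in DOX without DOX replicate 1 (log2 difference 0.29, SE 0.06, limma adjusted p = 0.0429), and with all 9 libraries it had 0.235 (limma adjusted p = 0.085). Mybpc3, the cardiac myosin binding protein C gene, had 544 and 534 to 633 FPKM.

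BMP10 signals through the receptor gene Acvrl1 with the partners Bmpr2 and Eng, and Id and inhibitory Smad genes are known targets. The 13 tested genes of this pathway had a median distance of 0.23 in DOX replicate 1. Acvrl1 was at 6.41 FPKM there and 5.61 to 6.96 elsewhere. Id2 had 5.67 FPKM there and 1.96 to 2.74 elsewhere, and Smad6 had 4.2 and 1.93 to 2.49. In DOX against control 1 of the 13 was called: Id3 rose (log2 difference 0.39, SE 0.09, limma adjusted p = 0.0423), and without DOX replicate 1 it had 0.34 (limma adjusted p = 0.0871). In TPTN against DOX Id1 fell by 0.43 on the log2 scale (SE 0.10, limma adjusted p = 0.0433), and without DOX replicate 1 it had -0.45 (limma adjusted p = 0.0562). Both calls were also absent after median-ratio scaling and quantile normalization. Leaving out any 1 library except TPTN replicate 1 or DOX replicate 3 ended the Id3 call, and leaving out any 1 except control replicate 1 or 2 ended the Id1 call. The receptor gene Bmpr1a was higher in TPTN than in DOX without DOX replicate 1 (log2 difference 0.55, SE 0.10, limma adjusted p = 0.0307). With all 9 libraries it had 0.45 (SE 0.11, limma adjusted p = 0.0515). In TPTN against control 0 of the 13 passed in limma, with 4 at an unadjusted p under 0.05, beside 1853 of all 12500 genes.

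Markers of other cells and tissues in or near the atria were compared over the same libraries. Of 7 epicardial genes, 6 were highest in DOX replicate 1, and the list summed to 0.775 to 1.26 FPKM in TPTN, 0.825 to 2.8 FPKM in DOX and 0.656 to 1.39 FPKM in control. Upk3b had 0.726 FPKM there and 0.018 to 0.195 elsewhere, and Upk1b had 0.265 and 0 to 0.0364, while Wt1 was not highest. Of 8 pacemaker genes measured, 6 were highest there. The list summed to 10.8, 12.2 and 13.1 FPKM in TPTN, 12.4, 10.6 and 10.9 in DOX, and 9.47, 8.62 and 8.72 in control. DOX replicate 1 was not the highest library in that sum. Its most abundant gene was Smoc2, which was not highest there, at 5.98 FPKM against 4.86 to 7.75 FPKM elsewhere. Of the 4 pacemaker genes tested, 0 stood at least 1 log2 unit above every other library in DOX replicate 1. Hcn4, the pacemaker channel gene, had 1.66 FPKM in DOX replicate 1 and 0.615 to 1.42 elsewhere. Of 3 conduction system genes, 2 were highest there: Cntn2 had 1.42 FPKM and 0.109 to 0.479 elsewhere, and Etv1 had 1.03 and 0.358 to 0.641. Irx3, the other gene of that list, had 5.7 FPKM there, within the 4.73 to 7.93 FPKM of the other libraries. Of 5 adipocyte genes 4 were highest there, with Adipoq at 0.17 FPKM and the list sum at 0.455 FPKM, against 0 to 0.157 FPKM in the other libraries. Of all genes above 0 in a library, 19.2% were highest in DOX replicate 1. Many of the list genes were near 0. A mean of 0.5 FPKM over the 9 libraries was reached by 1 of the 7 epicardial genes and 4 of the 8 pacemaker genes. It was reached by 2 of the 3 conduction system genes and 0 of the 5 adipocyte genes. The part of these tissues in the members' values was not tested. Skeletal muscle genes summed to 1.56 FPKM in DOX replicate 1 and to 0.689 to 1.14 FPKM in the other 8 libraries, and 2 of the 5 measured were highest there. Lung genes summed to 6.1 FPKM in control replicate 1 and to 0 to 0.258 FPKM in the other 8 libraries.

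The genes whose values over the 9 libraries were most like the members were ranked by their mean Pearson r with the 5 genes on log2(FPKM + 1), among genes with a mean of at least 1 FPKM. Hamp, which encodes the iron regulatory hormone hepcidin, came first (r = 0.998). It had 27.3 FPKM in DOX replicate 1, 0.056 in control replicate 1 and was listed at 0 in the other 7 libraries. Dkk3 (r = 0.996) followed, then the extracellular matrix protein genes Podn and Fbln1 (both r = 0.981), Sbk2 (r = 0.980), Zfp579, Gm13054, the kinase gene Sbk3, Stard10 and Tbc1d1 (r = 0.975). Sbk3 had 25.2 FPKM in DOX replicate 1 and 0.178 to 1.11 elsewhere, and Fbln1 had 18.8 and 9.25 to 10.4. All 10 had their highest value in that library, which the ranking favoured, since the members were chosen for it. Hamp, Dkk3, Gm13054 and Sbk3 had medians under 1 FPKM over the other 8 libraries and met the minimum mean only through DOX replicate 1. The members among themselves had r between 0.992 and 0.9998 over the 9 libraries, and these values describe 1 library against 8.

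Without DOX replicate 1 the members were less alike. The 10 pairs of members had r between -0.43 and 0.76 over the 8 libraries, with a median of 0.23, and Myl7 with Myl4 was the highest. Over these 8 libraries the mean r with the members was -0.41 for Hamp, 0.10 for Dkk3 and -0.24 for Sbk2. The gene with the highest mean r was then Gm13611 (r = 0.56), and Tbx5 was among the first 10 (r = 0.54). In values this close to 0 FPKM these weak correlations are a description only.

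**Figure D5:**
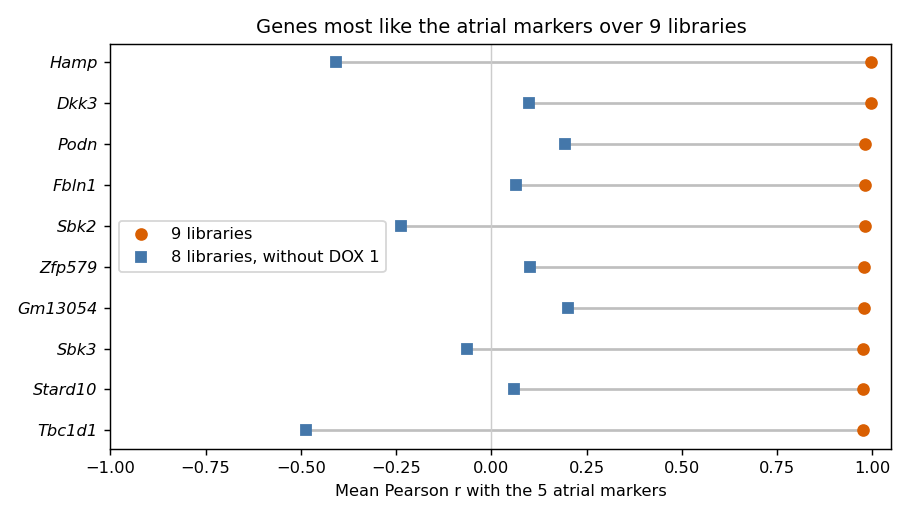
For the 10 genes most like the members over the 9 libraries (orange circles), blue squares give the mean Pearson r with the 5 members over the 8 libraries without DOX replicate 1. The circles lie between 0.975 and 0.998 and the squares between -0.49 and 0.20.

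Of the 28 genes that set DOX replicate 1 apart, the 5 members and 5 other atrial genes made up 10, and 18 were on no list used here. By distance, Hamp, Dkk3, Sbk3, Gm13054 and Nppa came next after the members, and 8 of the 28 lay at least 3 log2 units above the other libraries. Among the rest, and chosen after their values were seen, were Gpx3, a secreted glutathione peroxidase gene, at 236 FPKM against 50.5 to 78.6 elsewhere, the imprinted genes H19 at 24.9 against 2.96 to 8.97 and Igf2 at 5.67 against 0.0852 to 2.05, and Cacna1h, a T-type calcium channel gene, at 3.87 against 0.611 to 1.1.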

How the data were processed

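The authors' deposited table gives FPKM per gene and library, and a deposited p-value and q-value whose groups its header does not name; these were not used. Per the submitters' processing notes, cutadapt 1.9, HISAT2 2.0.4, StringTie 1.3.4d, DESeq2, edgeR and GRCm38 were named without roles; per the labels' protocols, poly(A) RNA was sequenced as paired reads of 150 bases. FPKM divides by length and library total, so abundant genes shift all others.

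Genes with a mean of at least 0.5 FPKM over the 9 libraries (12500) were tested as log2(FPKM + 1) with limma 3.58.1 (R 4.3.3; mean-variance trend, robust estimation, Benjamini-Hochberg adjustment over all of them, threshold 0.05). TPTN against control used its 6 libraries, since 1 DOX library was known to stand apart, and the other comparisons all 9. The members, gene lists and tests were chosen with earlier results of these data known. Named genes are the members, list genes, the 10 most like the members over 9 or over 8 libraries and the 10 farthest apart in DOX replicate 1, besides 4 named after their values were seen. The members' own tests are not reported, since the choice of members and the filter used the same libraries. The fit was also run on simulated data in which each gene had the same spread in every library. Those data held no library that stands apart as DOX replicate 1 does. Alternatives were another pseudocount, other filters on low values, median-ratio and quantile scaling, a replicate block, other groups in the fit and leaving out each library. Tables were read with pandas 2.3.3 in Python 3.11.15, and positions are from GENCODE M21.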

Additional observations from a re-analysis of the deposited data

How the results depend on the processing

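The members' own values per library do not depend on the test. With a pseudocount of 0.1 in place of 1, the TPTN minus control differences were 0.648 for Myl7, 0.00835 for Myl4, 0.0807 for Sln, -0.395 for Bmp10 and 0.362 for Mybphl. The DOX minus control ones were 5.38, 3.10, 3.21, 2.84 and 3.27, and the TPTN minus DOX ones -4.73, -3.09, -3.13, -3.23 and -2.91, in the same order of genes. The sign of some differences near 0 changed. Leaving out single libraries gave -0.0445 (without TPTN replicate 1) to 0.414 for Myl7, -0.0395 to 0.0335 for Myl4 and -0.00918 to 0.0392 for Sln. In DOX against control, it gave -0.0299 (without DOX replicate 1) to 2.999 for Bmp10. With the filter applied to the libraries of the fit, an alternative chosen after seeing the data, none of the 5 members remained among the genes tested.

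The counts of all genes called in limma were 69 (28 higher, 41 lower) for TPTN against control, 329 (279, 50) for DOX against control and 407 (99, 308) for TPTN against DOX. With no filter on low values they were 0, 2 and 2, with 2316, 2822 and 3261 genes at an unadjusted p under 0.05. With the replicate block they were 14, 170 and 159. Same-numbered libraries of different groups had correlations of deviations between -0.26 and 0.02, and differently numbered ones between -0.25 and 0.40. The 3 above 0.1 joined control replicate 3 with TPTN replicate 1 (0.398), control replicate 1 with TPTN replicate 2 (0.293) and control replicate 2 with TPTN replicate 3 (0.226). Deviations from means of 3 libraries cannot decide whether libraries are paired, and the source of these correlations was not tested. For DOX against control, median-ratio scaling gave 182 (118, 64), quantile normalization 145 (77, 68) and a fit of those 2 groups 176. For TPTN against DOX, the same scalings gave 439 (151, 288) and 333 (171, 162). Leaving out single libraries gave 13 to 98, 2 to 314 and 45 to 468 calls. Moves of over 1.5 times came, for TPTN against control, without any TPTN replicate or control replicate 2 or 3; for DOX against control, without TPTN replicate 3, DOX replicate 2 or 3, or any control replicate; and for TPTN against DOX, without any TPTN replicate, DOX replicate 2 or 3, or control replicate 3. The cause was not tested. Without DOX replicate 1 the DOX comparisons gave 314 and 468 calls.

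The depth of each library is a rough estimate and counts were not recovered, so no counting interval is given for the members' low values.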
